A study of Mus musculus with 8 samples.

Results

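The Bcl-2 family survival and death genes were examined in mouse splenic T cells with and without succinate dehydrogenase A (SDHA), a catalytic subunit of mitochondrial complex II. The set held 10 genes, given by name, of the 20170 genes in the count matrix. They were the survival genes Bcl2, Bcl2l1 and Mcl1, the pore-forming effectors Bax and Bak1, and the BH3-only genes Bcl2l11, Bid, Bik, Bbc3 and Pmaip1. The study prepared 8 single-cell RNA libraries, 2 for each of 4 groups, crossing genotype (WT or SDHA-KO) with stimulation. SDHA-KO mice were Sdha fl/fl CD4-Cre animals, in which Cre acts in cells that have expressed Cd4. Mice were 8 to 12 weeks old, and the labels call the controls WT without giving their alleles. The labels do not say whether the 2 libraries of a group came from different mice, so every p measures the spread between these libraries only. All groups shared pan-T magnetic selection from the spleen and removal of dead cells. Stimulated cells received soluble anti-CD3 at 5 µg/mL and anti-CD28 at 2.5 µg/mL for 48 h, and no time in culture is given for unstimulated cells.

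Bcl-2 family proteins decide whether the outer mitochondrial membrane is permeabilised, the committing step of the intrinsic death pathway. Survival members hold Bax, Bak and the BH3-only proteins in check through a groove that binds a short helix, the BH3 motif, whereas freed Bax and Bak form pores that release cytochrome c. In T cells, resting survival rests largely on Bcl-2 and Mcl-1, activation brings in Bcl-xL, and Bim is the main BH3-only protein that ends responses.

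The BH3 motif is the sequence that members of all roles share, so the bases that code for it are printed with a clause on each gene. Sequence came from the mm10 (GRCm38) genome at GENCODE M21 coding exons, 5′ to 3′ on the gene's strand, and capitals mark the codon of the conserved leucine and the adjacent glycine or alanine and aspartate codons.
Bcl2: ctgaccCTCcgccgggctGGGGATgacttc
Bcl2l1: caagcgCTGagagaggcaGGCGATgagttt
Mcl1: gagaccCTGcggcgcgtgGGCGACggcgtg
Bax: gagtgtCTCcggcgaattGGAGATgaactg
Bak1: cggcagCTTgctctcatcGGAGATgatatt
Bcl2l11: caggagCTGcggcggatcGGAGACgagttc
Bid: agacatCTCgcccaaataGGCGATgagatg
Bik: ttgaggCTGgcctgcatcGGCGATgagatg
Bbc3: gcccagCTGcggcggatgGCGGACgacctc
Bcl2 codes for it in exon 1 (chr1:106712578-106712607, minus strand), Bcl2l1, which encodes Bcl-xL, in exon 2 (chr2:152829700-152829729, minus strand) and Mcl1 in exon 1 (chr3:95659430-95659459, plus strand). The effector sites are in exon 3 of Bax (chr7:45466000-45466029, minus strand) and exon 4 of Bak1 (chr17:27022534-27022563, minus strand). Among BH3-only genes, the site of Bcl2l11, which encodes Bim, is in exon 3 (chr2:128147144-128147173, plus strand) and that of Bid, cut by caspase-8 in the death receptor pathway, in exon 4 (chr6:120897292-120897321, minus strand). Bik has it in exon 3 (chr15:83543078-83543107, plus strand) and Bbc3, which encodes Puma, in exon 3 (chr7:16313767-16313796, plus strand). Bbc3 is the one of the 9 printed sequences with an alanine codon, GCG, in place of glycine before the aspartate. Pmaip1, which encodes Noxa, is given by its counts.

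UMIs, which count captured molecules, were summed per library over the cells of each CD class that the authors assigned, giving 325 to 1315 cells a class and library and 3640136 to 34087903 UMIs. Levels are CPM, a gene's UMIs scaled to the library's total with a TMM correction for composition, and a difference is called when the adjusted p of edgeR's quasi-likelihood test is under 0.05 over all genes tested. Sdha checked the labels, with 100.5 and 100.1 in the unstimulated WT CD4 libraries against 49.8 and 49.4 in SDHA-KO, and 74.0 and 73.1 against 26.5 and 26.4 after stimulation. In CD8 it was 91.4 and 95.7 against 39.0 and 37.6, and 76.2 and 74.9 against 53.2 and 50.4. In the strict CD8 class defined below, Sdha after stimulation was 76.2 and 74.3 in WT and 29.1 and 26.9 in SDHA-KO. Of the 1133 and 815 Sdha UMIs in the stimulated SDHA-KO CD8 class, 199 and 151 lay in strict cells, which were 169 of 511 and 147 of 396 cells. Cells outside the strict class thus held most of its Sdha UMIs. The 3′ reads of Sdha need not lie in the deleted exons. Some library features run beside the results. The share of UMIs from mitochondrially encoded genes had a library median of 14.9% to 19.0% in stimulated WT cells and 1.77% to 3.43% in stimulated SDHA-KO cells. Cells with a UMI of Trdc, the constant gene of the delta chain of γδ T cells, were 59.1% and 56.1% of the stimulated SDHA-KO CD8 class against 3.67% and 4.92% in WT, and 19.7% and 15.2% against 3.90% and 3.41% without stimulation. Summed markers of other cells, in CPM without the TMM correction, were higher in stimulated SDHA-KO CD8 sums than in WT. They were 8.85 to 11.2 against 2.38 to 2.73 for 3 NK cell genes and 16.8 to 17.8 against 3.44 to 4.12 for 4 myeloid genes. For 6 B cell genes they were 345 in SDHA-KO library 1 and 64.1 in library 2, against 50.0 to 53.7 in WT. The 2 CD8 genes had 211 and 273 in these SDHA-KO sums. Up to 1, 1 and 3 genes of these lists were at 0 in a library. In stimulated CD4 sums the NK cell genes had 1.203 to 4.26 CPM, also without TMM, in SDHA-KO against 0.0688 to 0.158 in WT. The myeloid genes had 10.1 to 17.4 against 2.41 to 3.05, while the B cell genes overlapped (63.9 to 74.1 against 27.8 to 101). All 6 T cell genes were found in every library. Results are therefore also given in cells under 10% mitochondrial UMIs and in a strict class, which kept cells with a UMI of the class's own CD4 or CD8 genes and none of the other class or of Trdc. The part of these features in a result was not tested beyond those values. In such sums, fewer expressing cells and less RNA per cell cannot be told apart except where shares of cells are given.

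Unstimulated cells differed by genotype in 1 member in each class, Bcl2, the survival gene that was higher in SDHA-KO. Of all genes tested, 1.1% were called in the CD4 class and 0.947% in the CD8 class. The WT CD4 libraries had 325 and 319 CPM of Bcl2, and the SDHA-KO ones 659 and 543. Both SDHA-KO libraries lay above both WT libraries, and the log2 difference was 0.90 ± 0.15 (SE, n = 2 libraries a group, adjusted p = 0.0191 by edgeR). In CD8 cells Bcl2 was 344 and 404 in WT and 637 and 542 in SDHA-KO, again without overlap, for a log2 difference of 0.65 ± 0.12 (adjusted p = 0.0328 by edgeR). The strict classes gave 0.90 and 0.58, both called (1.17% and 1.87% of genes). The calls were lost in most fits without 1 of these libraries. Such fits leave 1 library in a group, so a call can be lost while the difference stays. In CD4 the Bcl2 call was lost without WT library 1 (log2 0.92, adjusted p = 0.17), WT library 2 (0.89, 0.218) or SDHA-KO library 1 (0.76, 0.116), and in CD8 without any of the 4 unstimulated libraries (0.54 to 0.79, adjusted p from 0.073 to 0.304). Cd4 itself was higher in the unstimulated SDHA-KO CD4 class by 1.91 on the log2 scale, and 521 of 933 and 540 of 951 WT cells met the strict definition against 916 of 1116 and 1042 of 1315 SDHA-KO cells.

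The other 9 members were not called between unstimulated genotypes. Their log2 differences ran from -0.46 (Bid) to 1.39 (Bik) in CD4 and from -0.13 (Pmaip1) to 0.57 (Bik) in CD8. Bcl2l1 was at 0.15 and 0.38, Bcl2l11 at 0.13 and 0.34, Bak1 at -0.20 and 0.10 and Bbc3 at 0.46 and 0.31 in CD4 and CD8. Pmaip1 was at 0.77 in CD4 and Bid at 0.02 in CD8. Bik, a BH3-only gene of the endoplasmic reticulum, had 1.76 and 0.90 CPM in WT and 3.04 and 3.87 in SDHA-KO CD4 cells, which did not overlap but missed the threshold (adjusted p = 0.0808 by edgeR). For Bax, the effector that moves from the cytosol to mitochondria, the 95% interval of the log2 difference was 0.01 to 0.45 in CD4 and 0.16 to 0.57 in CD8 while the adjusted p was 0.346 and 0.14 by edgeR. Mcl1 had intervals of -0.09 to 0.26 and -0.15 to 0.29.

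**Figure D1:**
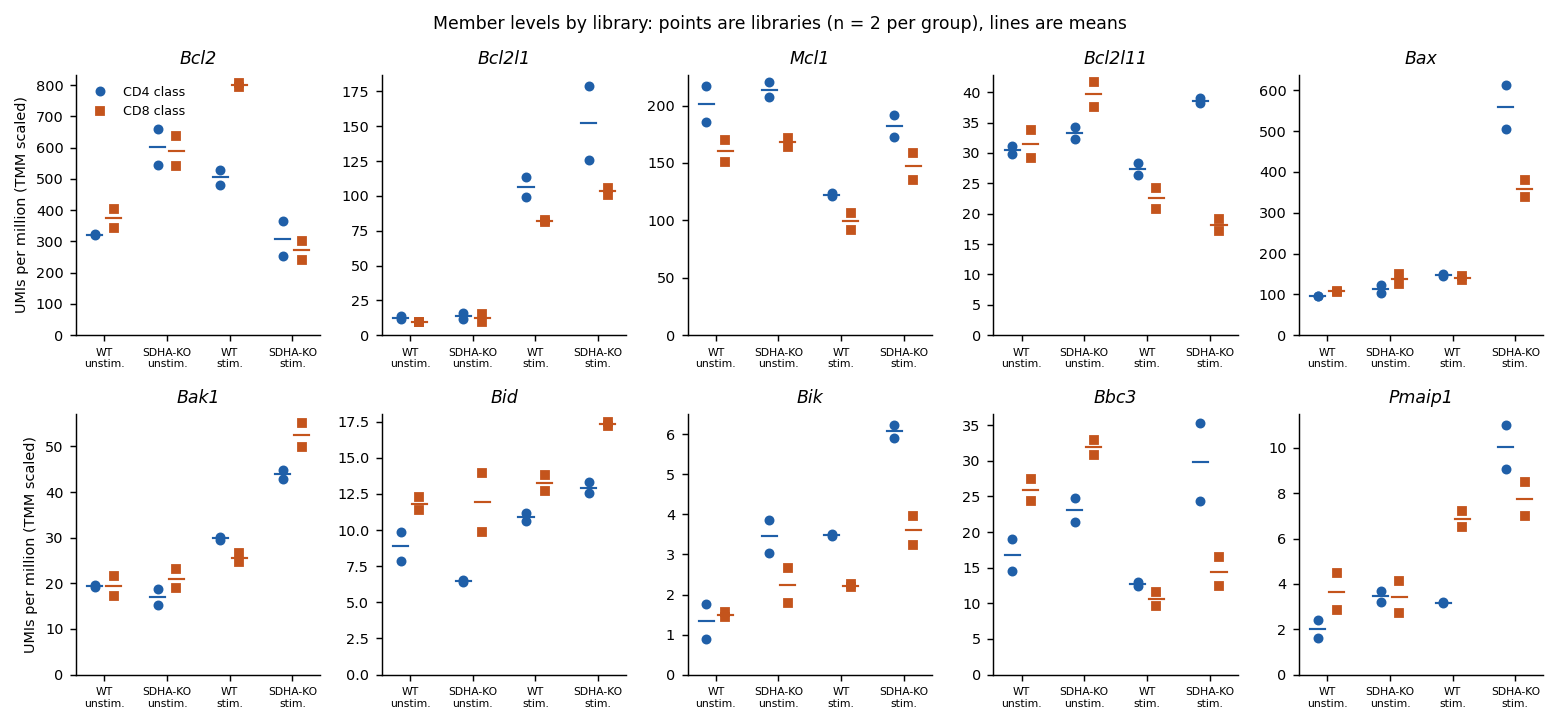
Each panel plots 1 member, with TMM-scaled CPM on the vertical axis and the 4 groups on the horizontal axis; points are libraries (2 a group; blue circles, CD4 class; orange squares, CD8 class) and lines are means. Bax in stimulated SDHA-KO cells (506 and 613 in CD4, 339 and 379 in CD8) lies above every other group, Bcl2 in the same libraries (252 to 366 in CD4, 241 to 301 in CD8) lies below stimulated WT, and Bcl2l1 is high in all stimulated libraries.

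Stimulation of WT cells raised Bcl2l1 more than any other member. Of all genes, 66.3% were called in CD4 and 65.7% in CD8, so the 7 members called in CD4 (6 higher, 1 lower) and 8 in CD8 (5 higher, 3 lower) were near the share of genes at large. Bcl2l1 went from 13.6 and 11.5 to 113 and 99.2 CPM in CD4 and from 9.43 and 9.82 to 81.1 and 82.8 in CD8, log2 changes of 3.08 ± 0.20 and 3.09 ± 0.14. No stimulated library came near an unstimulated one. Bcl2 rose too, by 0.65 in CD4 and 1.09 in CD8, and reached 806 and 793 in CD8, its highest level among the class sums. Mcl1, whose protein turns over within minutes to hours, fell by 0.72 and by 0.69. Bbc3 fell in CD8, from 27.4 and 24.3 to 9.56 and 11.6 (log2 change -1.28 ± 0.17), and was not called in CD4 (-0.40, adjusted p = 0.101 by edgeR). Bax and Bak1 rose by 0.62 each in CD4 and 0.39 each in CD8, and Pmaip1 by 0.66 and 0.87, although the CD4 call of Pmaip1 was kept in 3 of 8 fits without 1 library, and the CD8 calls of Bak1 and Pmaip1 in 6 of 8 each. Bik rose in CD4 by 1.40 and was not called in CD8 (0.56, adjusted p = 0.226 by edgeR), and Bcl2l11 fell in CD8 (-0.48, call kept in 7 of 8). Bid was not called in CD4 (0.29, adjusted p = 0.101 by edgeR) or CD8 (0.17, 0.378), nor Bcl2l11 in CD4 (-0.16, 0.165). The CD8 value of Bcl2l11 was 0.01 when libraries were scaled to their totals alone, a scaling that moved the median of all genes by 0.48 in this comparison, the split of member calls to 7 higher and 1 lower, and the share of all called genes that were higher from 54.0% to 75.6%. The same scaling moved the median of all genes by 0.22 in both CD4 stimulation comparisons, by 0.29 in SDHA-KO CD8 cells, by 0.12 between unstimulated CD8 genotypes, by -0.19 in the CD8 test of the genotype effect between states and by 0.13 between unstimulated classes. It moved the share of called genes that were higher from 54.6% to 65.4% for WT CD4 stimulation, from 52.4% to 62.8% and from 54.6% to 66.3% for SDHA-KO stimulation in CD4 and CD8, and from 29.8% to 73.0% between unstimulated CD8 genotypes. In WT cells under 10% mitochondrial UMIs, the stimulated level of Bcl2 was lower and that of Bax higher than in all cells. With stimulation Bcl2 there went from 314 and 307 to 382 and 416 CPM in CD4 and from 329 and 387 to 523 and 528 in CD8. Bax went from 93.3 and 91.7 to 182 and 184 in CD4 and from 101 and 105 to 179 and 182 in CD8.

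In SDHA-KO cells the same stimulation went with a fall of Bcl2 and larger rises of the effectors. Here 69.8% of genes were called in CD4 and 68.2% in CD8, with 9 members called in CD4 (7 higher, 2 lower) and 8 in CD8 (5 higher, 3 lower). Bcl2 dropped from 659 and 543 to 366 and 252 in CD4 and from 637 and 542 to 301 and 241 in CD8, log2 changes of -0.96 ± 0.15 and -1.12 ± 0.12. Every stimulated SDHA-KO library was below every unstimulated one of its genotype. Bax rose by 2.31 ± 0.11 and 1.38 ± 0.10, Bak1 by 1.37 and 1.32, and Bid by 1.00 and 0.54. Bcl2l1 rose as in WT, by 3.45 and 3.04, and Pmaip1 by 1.55 and 1.17. Bcl2l11 moved in opposite directions, 0.21 in CD4 and -1.13 in CD8, Bbc3 was called in CD8 alone (-1.15 against 0.38), Bik in CD4 alone (0.81 against 0.68), and Mcl1 in CD4 (-0.23) and not in CD8 (-0.19, adjusted p = 0.125 by edgeR). The CD4 calls of Mcl1 and Bcl2l11 were kept in 1 and 4 of 8 fits without 1 library, and those of Bik in CD4 and of Bid and Pmaip1 in CD8 in 7 of 8. The 4 comparisons of a class share their libraries, so none is a repeat of another.

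A test of whether the genotype effect differed between states called 5 members in each class, where 21.4% and 23.8% of all genes were called. The effect on Bcl2 was lower after stimulation by 1.61 ± 0.21 in CD4 (adjusted p = 0.00051 by edgeR) and by 2.21 ± 0.17 in CD8 (3.91e-05), since its sign turned from higher to lower. For Bax the effect was larger after stimulation by 1.69 ± 0.15 and 0.99 ± 0.14, and for Bak1 by 0.75 and 0.93. Mcl1 gave 0.49 in both classes, Bid 0.71 in CD4 and Bcl2l11 -0.65 in CD8. Several of these smaller calls were lost when 1 library was left out. In fits without 1 library the CD4 calls of Mcl1 and Bid were kept in 5 and 3 of 8, and the CD8 calls of Mcl1, Bcl2l11 and Bak1 in 2, 4 and 6 of 8. In the strict class the CD8 value of Bcl2l11 was 0.01. Of the members not called, Bcl2l1 (0.37), Bcl2l11 (0.37), Bik (-0.59), Bbc3 (0.77) and Pmaip1 (0.89) gave these values in CD4, and Bcl2l1 (-0.04), Bid (0.38), Bik (0.12), Bbc3 (0.13) and Pmaip1 (0.29) in CD8. In cells under 10% mitochondrial UMIs 2 members were called in each class (14.2% and 11.1% of genes), Bcl2 (-1.36 and -1.84) and Bax (1.36 and 0.70). Scaling to totals alone moved the share of called genes that were higher in this CD8 test from 56.9% to 32.7%.

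Among stimulated cells, SDHA-KO differed from WT in 9 members in CD4 (8 higher, 1 lower) and 8 in CD8 (6 higher, 2 lower), where 43.2% and 50.4% of all genes were called. The median log2 difference of the 10 members was 0.57 in CD4 and 0.41 in CD8, beside -0.00 and -0.01 over all genes tested. The survival genes did not move together. Bcl2 was 481 and 528 CPM in WT CD4 cells and 366 and 252 in SDHA-KO, and 806 and 793 against 301 and 241 in CD8. All 4 SDHA-KO sums lay under the WT sums of their class, with log2 differences of -0.71 ± 0.15 (adjusted p = 0.00262 by edgeR) and -1.56 ± 0.12 (2.45e-06). The other pair of survival genes was higher in SDHA-KO. Bcl2l1 stood at 126 and 179 against 113 and 99.2 in CD4 and at 101 and 106 against 81.1 and 82.8 in CD8, differences of 0.52 ± 0.15 and 0.33 ± 0.09. Mcl1 stood at 173 and 192 against 121 and 124 in CD4 and at 135 and 159 against 91.8 and 107 in CD8, differences of 0.57 ± 0.09 and 0.56 ± 0.10. None of these groups overlapped, though with 2 libraries against 2 an exact two-sided permutation p cannot be under 0.333. The Bcl2l1 call was lost in CD4 without WT library 2 (0.44, adjusted p = 0.102) or SDHA-KO library 2 (0.26, 0.111), and in CD8 without WT library 1 (0.30, 0.081) or WT library 2 (0.33, 0.057).

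Both effectors were higher in stimulated SDHA-KO cells. Bax had 145 and 149.9 CPM in WT CD4 cells and 506 and 613 in SDHA-KO, and 136 and 145 against 339 and 379 in CD8. Its log2 differences, 1.92 ± 0.10 in CD4 (adjusted p = 2.73e-07 by edgeR) and 1.35 ± 0.09 in CD8 (1.33e-06), had the largest size of any member in CD4 and came after that of Bcl2 in CD8. Bak1, the effector that resides in the mitochondrial membrane, was 30.2 and 29.5 against 42.9 and 44.9 in CD4 and 24.7 and 26.6 against 49.8 and 55.2 in CD8. The Bak1 differences were 0.56 ± 0.09 and 1.03 ± 0.10, without overlap in either class. Bax ends within the span of a predicted gene on its own strand, Gm45808, whose reads the counting may not separate from it.

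The BH3-only genes differed by class. In CD4 cells Bbc3 was 24.4 and 35.3 CPM in SDHA-KO against 13.0 and 12.4 in WT (1.23 ± 0.16), Pmaip1 was 9.08 and 11.0 against 3.14 and 3.21 (1.66 ± 0.17), and both are known targets of p53. Bcl2l11 was 38.1 and 39.1 against 28.4 and 26.3 (0.50 ± 0.08), and Bik 5.92 and 6.25 against 3.47 and 3.50 (0.80 ± 0.20). All 4 were called, beside 43.2% of all genes tested, whereas Bid was not called (0.25, 95% interval 0.02 to 0.48, adjusted p = 0.111 by edgeR). In CD8 cells Bcl2l11 was lower in SDHA-KO, at 17.2 and 19.1 against 24.2 and 20.8 (-0.31 ± 0.11, adjusted p = 0.0362 by edgeR). Bid was 17.5 and 17.2 against 13.8 and 12.7 (0.39 ± 0.12) and Bbc3 12.4 and 16.5 against 9.56 and 11.6 (0.44 ± 0.15), both called. Bik (0.69, adjusted p = 0.052) and Pmaip1 (0.17, interval -0.19 to 0.53) were not called in CD8 by edgeR. The calls of these smaller CD8 differences were lost in some fits without 1 library. Such fits leave 1 library in a group, so a call can be lost with little change of the difference. Without WT library 1 the Bcl2l11 call (-0.21, adjusted p = 0.233) and the Bbc3 call (0.29, 0.209) were lost, without SDHA-KO library 1 those of Bcl2l11 (-0.25, 0.155) and Bid (0.37, 0.07), without SDHA-KO library 2 that of Bbc3 (0.21, 0.274) and without WT library 2 that of Bid (0.32, 0.124).

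**Figure D2:**
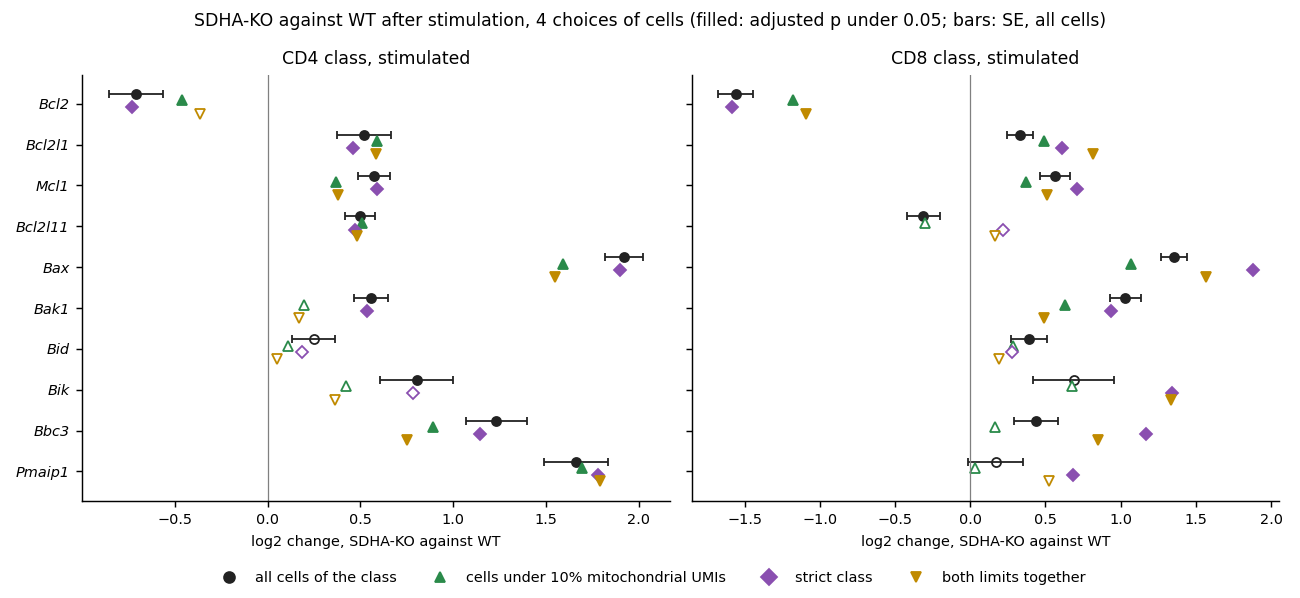
The horizontal axis is the log2 change of stimulated SDHA-KO against WT, with 1 line for each member and 1 panel for each class; the 4 symbols are the choices of cells named in the key, filled where the adjusted p is under 0.05, with the SE as a bar for all cells. Bcl2 sits left of 0 and Bax right of 0 under all 4 choices, while Bcl2l11 in CD8 lies at -0.31 in all cells and 0.22 in the strict class.

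The choice of cells changed some of these calls. Under 10% mitochondrial UMIs, 7 members were called in CD4 (32.8% of all genes) and 5 in CD8 (35.4%), with Bcl2 at -0.46 and -1.18 and Bax at 1.59 and 1.07. Bak1 (0.19, adjusted p = 0.12) and Bik (0.42, 0.13) were no longer called in CD4 by edgeR, nor were Bcl2l11, Bid and Bbc3 in CD8. In the strict class 8 members were called in CD4 (41.0% of all genes) and 8 in CD8 (49.5%), but not the same ones as in all CD8 cells. There Bcl2l11 turned to 0.22 and lost its call (adjusted p = 0.16), Bid lost its call, and Bik (1.34) and Pmaip1 (0.68) gained one, while Bbc3 went from 0.44 to 1.17 and Bax from 1.35 to 1.88. Both limits together, a choice made after seeing the data, gave 6 members in CD4 (29.6% of genes) and 7 in CD8 (32.8%), and left Bax at 1.55 and 1.57 and Bcl2 at -0.37 in CD4, which was not called (adjusted p = 0.079 by edgeR), and at -1.09 in CD8, which was.

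The CD8 values were set beside the γδ cells directly. In stimulated SDHA-KO CD8 cells with a Trdc UMI, Bcl2l11 had 12.4 and 17.3 unscaled CPM against 29.7 and 30.7 in the strict class of the same libraries. Bbc3 was 7.84 and 10.4 against 26.3 and 30.3, and Bax 288 and 299 against 560 and 619. Bcl2l1 (98.0 and 101 against 137 and 139), Mcl1 (138 and 158 against 170 and 203), Bik (1.79 and 2.75 against 6.20 and 6.71) and Pmaip1 (5.79 and 6.42 against 11.2 and 15.2) were also lower in the Trdc cells of both libraries. Bid was higher there, 21.4 and 20.9 against 18.3 and 18.1. Bcl2 (331 and 269 against 342 and 262) and Bak1 (59.2 and 59.9 against 50.4 and 62.6) were lower in 1 library and higher in the other. These sums hold 302 and 222 cells with Trdc and 169 and 147 strict cells.

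Bcl2 UMIs for each Bax UMI were counted per library, a ratio that needs no scaling and is read between libraries only. Its genes were already called in opposite directions between stimulated genotypes, so a gap in the ratio adds no separate support. In CD4 the ratio was 3.37 and 3.35 in unstimulated WT, 5.41 and 5.27 in unstimulated SDHA-KO, 3.31 and 3.52 in stimulated WT, and 0.723 and 0.412 in stimulated SDHA-KO. In CD8 the same groups gave 3.27 and 3.70, 4.23 and 4.30, 5.93 and 5.46, and 0.888 and 0.636. For this pair of genes, stimulated SDHA-KO libraries were the only ones under 1 in either class, and with 2 libraries against 2 an exact two-sided permutation test cannot give a p under 0.333. Under 10% mitochondrial UMIs the stimulated WT ratio was lower, 2.10 and 2.25 in CD4 and 2.92 and 2.90 in CD8, against 0.688 and 0.388 and 0.715 and 0.518 in SDHA-KO. Of the UMIs of all 10 members, Bcl2 made up 50.7% and 53.5% in stimulated WT CD4 cells and 28.1% and 18.2% in SDHA-KO, and Bax 15.3% and 15.2% against 38.8% and 44.2%. Other survival genes ordered the groups otherwise. In all CD4 cells Bcl2l1 per Bax was 0.141 and 0.121 in unstimulated WT, 0.779 and 0.662 in stimulated WT and 0.248 and 0.292 in stimulated SDHA-KO. Mcl1 per Bax was 2.25 and 1.95, 0.832 and 0.827, and 0.341 and 0.313 in these groups.

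**Figure D3:**
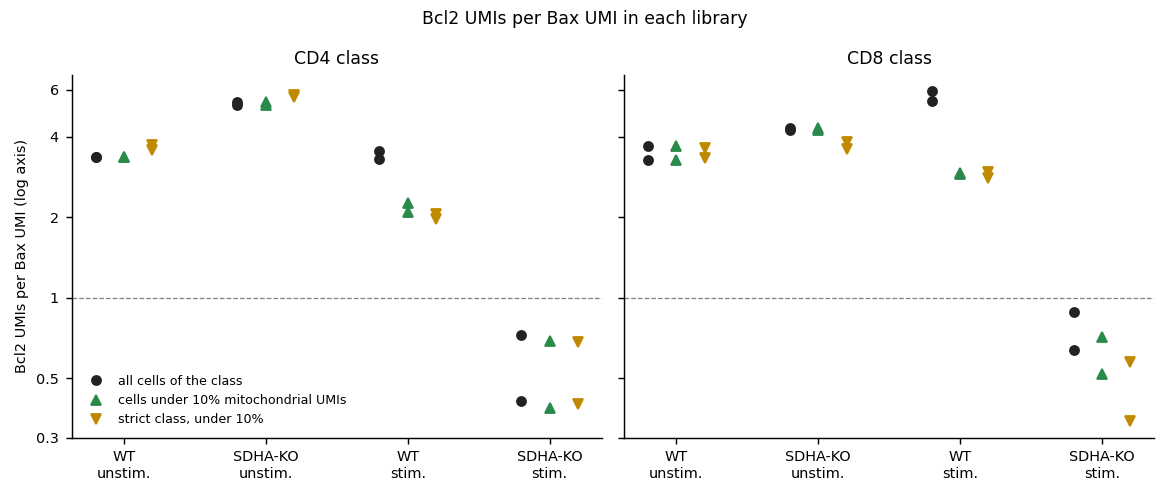
The vertical axis, on a log scale, is the number of Bcl2 UMIs for each Bax UMI in a library, by group and class; symbols mark 3 choices of cells (all cells, cells under 10% mitochondrial UMIs, and the strict class under 10%). The stimulated SDHA-KO points lie between 0.348 and 0.888 and those of the other groups between 1.97 and 5.93.

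More cells held a Bax UMI in stimulated SDHA-KO than in WT, in both classes. Cells of stimulated libraries were deeper (median 13152 to 30662 UMIs against 7055 to 10446), so shares were also taken after thinning each cell to 5000 UMIs, which left out 2 to 99 shallower cells a class and library. Bax was found in 74.6% and 74.7% of stimulated WT CD4 cells and 95.7% and 96.3% of SDHA-KO cells, and after thinning in 43.3% and 43.4% against 84.1% and 88.1%. In CD8 the Bax shares were 76.8% and 77.9% against 92.4% and 94.7%, and after thinning 45.4% and 45.8% against 71.8% and 76.9%. Bax UMIs were thus found in most SDHA-KO cells. The 1% of CD4 cells with the most Bax carried 4.90% and 4.97% of its UMIs there, against 7.86% and 9.05% in WT. Thinned Bcl2 shares in CD8 were 91.6% and 92.1% in stimulated WT and 71.8% and 69.7% in SDHA-KO, and 57.6% and 61.0% against 76.8% and 68.9% without stimulation. Before thinning these were 98.5% and 99.0% against 95.7% and 95.2%, and 69.5% and 75.4% against 87.7% and 78.9%. In stimulated CD4 cells the thinned Bcl2 shares overlapped, at 74.4% and 81.1% in WT and 74.5% and 62.4% in SDHA-KO (92.5%, 94.4%, 95.3% and 90.9% before thinning). Pmaip1 was sparse, with a UMI in 1.90% and 1.69% of thinned stimulated WT CD4 cells and 3.95% and 4.92% of SDHA-KO cells (8.38%, 8.27%, 16.4% and 21.0% before thinning). The authors removed clusters without CD3 transcripts, and no annotated cell type known to lack these genes was there to give a background share from free RNA.

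The CD4 and CD8 classes of the same libraries were compared with the library as a block. Without stimulation 33.6% of genes and 5 members were called. Mcl1 was higher in CD4 by 0.29 ± 0.04, and Bcl2 (-0.14), Bax (-0.28), Bid (-0.69) and Bbc3 (-0.60) were lower. The genotype effect differed between the classes in none of the 10 members by edgeR (0.551% of genes called), while 1 of them, Bcl2 (0.20), and 969 of 11259 genes were at an unadjusted p under 0.05. Scaling to totals alone moved the share of called genes that were higher in CD4 from 48.9% to 74.7%, and in the test of the genotype effect from 46.8% to 28.1%. After stimulation 47.5% of genes and 9 members were called, all but Bak1. Bcl2l11 was higher in CD4 by 0.64, Bik by 0.66, Bbc3 by 0.60, Bcl2l1 by 0.41, Bax by 0.30 and Mcl1 by 0.26, and Bcl2 (-0.29), Bid (-0.40) and Pmaip1 (-0.42) were lower.

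The genotype effect in stimulated cells differed between the classes in 6 members, where 22.4% of genes were called. It was higher in CD4 by 1.50 ± 0.16 for Pmaip1 (adjusted p = 0.00125 by edgeR), 0.85 ± 0.09 for Bcl2 (0.000944), 0.82 ± 0.10 for Bcl2l11, 0.79 ± 0.14 for Bbc3 and 0.58 ± 0.07 for Bax, and lower by 0.46 ± 0.09 for Bak1. Bcl2l1 (0.18), Mcl1 (0.02), Bid (-0.13) and Bik (0.13) were not called. The Bak1 call was lost without WT library 1 (-0.39, adjusted p = 0.076). With scaling to totals alone the share of called genes with a higher effect in CD4 went from 46.7% to 60.5%. In the strict classes 2 members were called (10.4% of genes), Bcl2 (0.83) and Pmaip1 (1.08). Bax was then at 0.00, Bbc3 at -0.06, Bcl2l11 at 0.23 and Bak1 at -0.42 (adjusted p = 0.078 by edgeR). The class difference of Bax itself went from 0.30 to -0.04. Since 524 of the 907 stimulated SDHA-KO CD8 cells carried a Trdc UMI, the class comparison over all cells is in part one between CD4 cells and cells with γδ transcripts.

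Within the Subtypes, which the authors named from memory and naive markers such as Ccr7 and Cd44 and from Foxp3, 23 pairs of a CD class and Subtype had at least 20 cells in each library of their state. Of 189 member and Subtype pairs that could be tested, 60 were called, 47 higher and 13 lower in SDHA-KO. Without stimulation, Bcl2 was higher in the 4 CD4 naive Subtypes (0.81 in Naive1, 1.36 in Naive2, 0.93 in Naive3 and 1.11 in Naive4, where 2.36%, 2.91%, 1.56% and 2.39% of genes were called) and in CD4 Tem1 (0.83, 7.83% of genes). In Treg cells, which depend on Foxp3, it was at -0.21 (adjusted p = 0.58 by edgeR, 0.706% of genes). In CD8 it was higher in Naive1 to Naive3 (0.84, 0.84 and 0.69, beside 2.41%, 2.2% and 1.22% of genes) and not called in Naive4 (0.42, 0.999%) or Tcm1 (0.21, 0.496%). The other unstimulated call was Bik in CD4 Tem1, at 3.31 and 3.14 CPM in WT and 26.3 and 34.1 in SDHA-KO (3.17 ± 0.57, adjusted p = 0.00018 by edgeR).

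After stimulation, Bax was called higher in all 12 Subtypes and Bcl2 called lower in 11. The share of genes called was 12.9%, 17.1% and 15.1% in CD4 Tcm2, Tcm3 and Tcm4, 27.8%, 24.0%, 23.0%, 28.3% and 8.47% in CD4 Tem1, Tem2, Tem3, Tem5 and Tem7, and 27.4%, 14.3%, 5.63% and 32.6% in CD8 Tcm2, Tcm3, Tcm4 and Tem2. Bax was called in 8 of 8 CD4 Subtypes, from 1.06 in Tem7 to 2.01 in Tcm2, and in 4 of 4 CD8 Subtypes, from 0.64 in Tem2 to 1.17 in Tcm2. Bcl2 was called in 7 of 8 CD4 Subtypes (-0.54 to -0.96), with Tem3 as the exception (-0.59, adjusted p = 0.08 by edgeR), and in 4 of 4 CD8 Subtypes (-1.28 to -1.58). Bcl2l1 was called higher in 6 CD4 Subtypes and no CD8 Subtype, Mcl1 in 5 and 1, and Bbc3 and Pmaip1 in 4 CD4 Subtypes each. With Subtypes merged over their numbers, an alternative chosen after seeing the data, Bcl2 in stimulated CD4 Tem cells was no longer called (-0.35 ± 0.16, adjusted p = 0.149 by edgeR, where 31.7% of genes were called), while Bax was (1.58). Merged CD4 Tcm cells gave -0.62 for Bcl2 and 2.01 for Bax (25.1% of genes), CD8 Tcm cells -1.49 and 1.00 (27.9%) and CD8 Tem cells -1.11 and 1.05 (33.4%), all called. Merged unstimulated naive cells gave Bcl2 at 1.01 in CD4 (3.57% of genes) and 0.74 in CD8 (5.0%), both called, and Bax at 0.43 in CD8, called, and 0.27 in CD4, not called. CD8 Tem2 was the Subtype with the most members called lower, 3. There Bcl2l11 was 28.7 and 19.7 CPM in WT and 4.88 and 12.8 in SDHA-KO (-1.47 ± 0.37), and Bbc3 13.6 and 16.1 against 7.88 and 7.89 (-0.91 ± 0.19). Subtype sums held all cells of a class, whether or not they had a Trdc UMI. In stimulated SDHA-KO CD8 cells with a Trdc UMI, unscaled Bcl2l11 was 12.4 and 17.3 CPM and Bbc3 7.84 and 10.4. Strict cells of those libraries had 29.7 and 30.7 for Bcl2l11 and 26.3 and 30.3 for Bbc3. The part of Trdc cells in the Tem2 values was not tested.

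**Figure D4:**
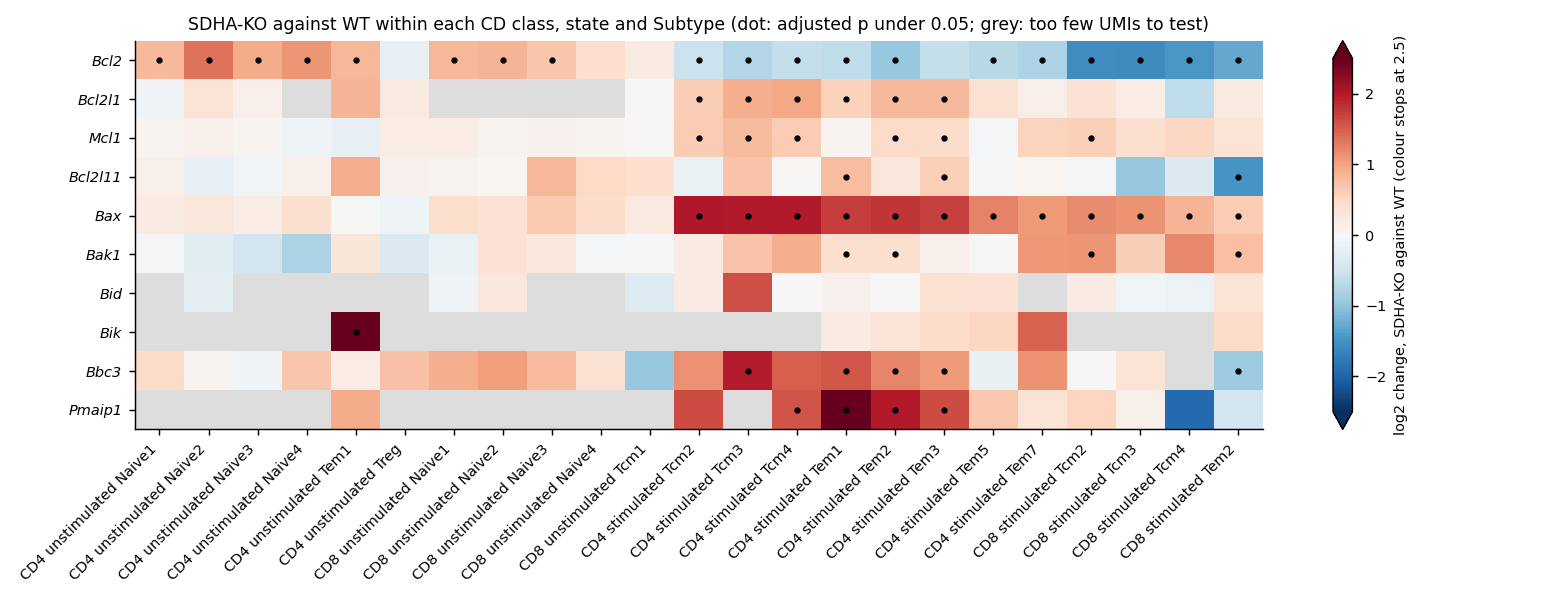
Colour gives the log2 change of SDHA-KO against WT (colours stop at 2.5) for each member (lines) in each CD class, state and Subtype (columns); a dot marks an adjusted p under 0.05 and grey marks too few UMIs to test. Bcl2 is called higher in 8 of 11 unstimulated Subtypes and called lower in 11 of 12 stimulated ones, with a change under 0 in all 12. Bax is called higher in all 12 stimulated Subtypes.

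Cells under 10% mitochondrial UMIs were compared with the other cells of the same stimulated library, with mitochondrially encoded genes left out. In CD4, 8 members were called (6 higher, 2 lower in the cells under 10%; 55.7% of genes) and in CD8 9 (8 higher, 1 lower; 59.9%). Bax was 269 and 272 CPM in WT CD4 cells under 10% and 84.8 and 89.5 in the others, and 747 and 894 against 372 and 372 in SDHA-KO. Each library had more Bax in the cells under 10%, by 1.39 ± 0.11 in CD4 and 1.48 ± 0.10 in CD8. Bak1 behaved alike (1.80 and 1.67), as did Bik (1.91 and 1.10), Bbc3 (1.25 and 1.28), Mcl1 (0.69 and 0.82) and Bid (0.44 in each). Bcl2 went the other way, at 565 and 614 against 872 and 996 in WT CD4 cells, by -0.63 in CD4 and -0.81 in CD8. Bcl2l1 was lower under 10% in CD4 (-0.43) and not called in CD8 (-0.16), while Bcl2l11 (0.50) and Pmaip1 (0.93) were higher in CD8 and not called in CD4. The Bid call in CD4, and that of Bcl2l11 in CD8, were kept in 1 of 4 fits without 1 library.

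The directions of Bax, Bak1, Bik, Bbc3, Mcl1 and Bcl2 between these cells were those of SDHA-KO against WT in stimulated cells, although Bik was not called between CD8 genotypes. Bid was also higher in both comparisons of each class, although it was not called between CD4 genotypes. Some other signs differed. Bcl2l1 in CD4 was lower under 10% (-0.43) and higher in SDHA-KO (0.52), and Bcl2l11 in CD8 was higher under 10% (0.50) and lower in SDHA-KO (-0.31). Stimulated libraries differed in the mix. Cells under 10% were 39.1% and 41.0% of stimulated WT CD4 cells and 24.3% and 29.3% of WT CD8 cells, against 86.9% and 90.0% and 65.0% and 64.1% in SDHA-KO. Within each kind of cell, Bax was still higher in SDHA-KO and Bcl2 lower, as the values by library show. In CD4 cells at or over 10%, Bcl2 was 872 and 996 in WT and 676 and 603 in SDHA-KO, and Bax 84.8 and 89.5 against 372 and 372. Bak1 in CD4 cells under 10% was 56.4 and 56.2 against 63.7 and 65.8, a gap smaller than that between all cells.

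**Figure D5:**
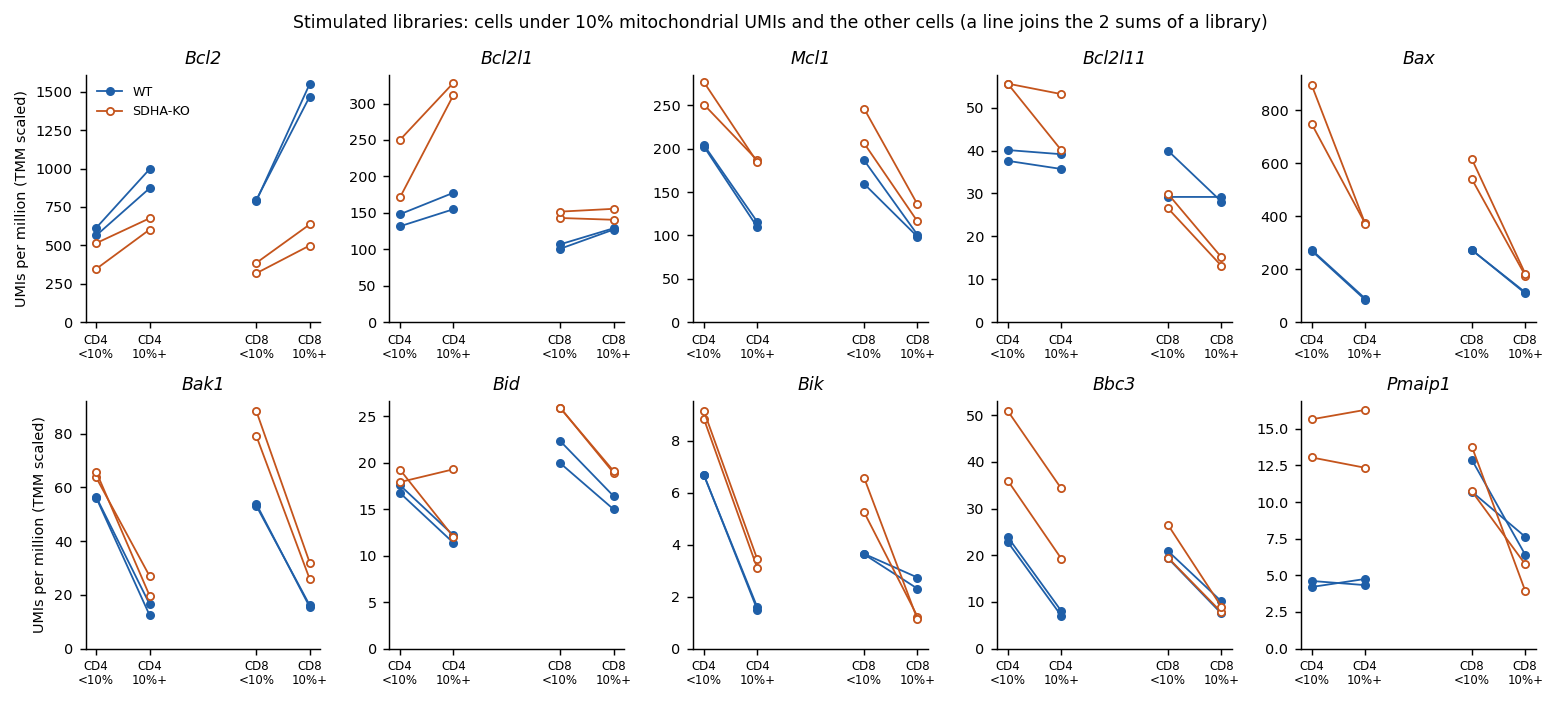
For each member the vertical axis is TMM-scaled CPM, scaled among these sums only, and the horizontal axis gives cells under 10% and at or over 10% mitochondrial UMIs for both classes; a line joins the 2 sums of a stimulated library (filled blue, WT; open orange, SDHA-KO). Bax falls along every line, from 269 and 272 to 84.8 and 89.5 in WT CD4, and Bcl2 rises along every line, from 565 and 614 to 872 and 996.

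The wider pathway was followed through 48 genes in 5 lists. In unstimulated cells none of them was called between genotypes in either class by edgeR, with 6 in CD4 and 4 in CD8 at an unadjusted p under 0.05, beside 1.1% and 0.947% of all genes called. Among stimulated cells, where 43.2% of all genes were called in CD4 and 50.4% in CD8, the other Bcl-2 family genes had 1 higher and 2 lower of 10 tested in CD4 (median 0.09) and 3 higher of 7 in CD8 (median 0.22). Of these, Bok, a Bax relative, was lower in CD4 (-1.42), and Bad, a BH3-only gene, higher in CD8 (0.80). The Bcl2a1 genes encode A1, a survival protein induced by activation, from near-identical copies whose reads are shared uncertainly. Bcl2a1a was higher in CD4 (2.82), at 1.59 and 1.43 CPM against 0.402 and 0.0325 in WT, whereas Bcl2a1b and Bcl2a1d were called in CD8 (0.40 and 0.82) and not in CD4 (0.18 and 0.15). Bmf was at -0.37 in CD4, not called, and was too low to test in CD8, as was Bcl2a1a.

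The remaining lists stand beside the same 43.2% of all genes called in CD4 and 50.4% in CD8. Downstream of the pore, the caspase arm had 7 higher and 3 lower of 12 in CD4 (median 0.29) and 5 higher and 4 lower in CD8 (median 0.13). Casp9, the initiator caspase of the apoptosome, was lower in both classes (-0.95 and -1.17), and Casp6, an executioner, was lower in CD8 (-0.85). Of 4 caspase inhibitors, Xiap (-0.39 and -0.62) and Birc2 (-0.36 and -0.82) were lower in both classes and none was higher. The death receptor arm had 5 higher of 9 in CD4 (median 0.29), led by the receptors Tnfrsf10b (1.06) and Fas (1.05), and 2 higher in CD8 (median 0.22), the adaptor Fadd (0.75) and the ligand Fasl (0.74). Regulators of the members had 3 higher and 4 lower of 12 in CD4 and 3 and 5 in CD8. Ddit3, which encodes the stress factor CHOP, was lower by the most (-2.05 and -2.18), followed by a higher Rela in CD4 (0.85) and a lower Foxo1 in CD8 (-0.73). The γδ transcripts of Trdc and 3 Tcrg constant genes were higher in stimulated SDHA-KO in both classes, 4 of 4 each, and their part in these lists was not tested.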

How the data were processed

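Splenic T cells were profiled by 10x Genomics 3′ single-cell RNA sequencing in 8 libraries, 2 for each of 4 groups taken from the sample labels. The authors converted reads with bcl2fastq, aligned and counted them with Cell Ranger against mm10 according to the submitters' processing notes (versions not given here), removed cells above a limit of detected genes and clusters without CD3 transcripts in Seurat, and deposited whole-number UMI counts for 20170 genes and 12846 cells. The deposited cell table holds the percentage of each cell's UMIs from the 13 mitochondrial genes, computed by the authors, and their CD class and Subtype, which were used as given. Columns of other samples were absent. Of 12823 distinct barcodes, 23 occurred in more than 1 library. No doublet caller was run.

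UMIs were summed per library and CD class (3640136 to 34087903 UMIs), or Subtype with at least 20 cells in each library compared, in Python 3.11.15 (numpy 2.4.6, pandas 2.3.3). Genes with 10 UMIs in enough libraries and a total of 15 were kept by filterByExpr, scaled by TMM and tested across all genes with edgeR's quasi-likelihood test (edgeR 4.0.16, limma 3.58.1, R 4.3.3) and Benjamini-Hochberg adjustment over every gene tested. A call is an adjusted p under 0.05. Each class was fitted over its 8 libraries, and classes and cells on either side of the 10% mitochondrial limit were compared with the library as a block. The study's own test treated cells as replicates and was not used. Cells were thinned to 5000 UMIs with a fixed seed for shares of cells. Intervals are the estimate with its SE at the 95% level of a normal distribution and cover the spread between libraries. With 2 libraries a group they are narrower than intervals from a t distribution would be. DESeq2 1.42.0 and the other alternatives are given at the end. Sequences were read from the mm10 genome with Biopython 1.88, and figures drawn with matplotlib 3.10.9.

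The named genes were the 10 members and, of each of the 5 lists, the 2 called genes with the largest log2 difference between stimulated genotypes in each class, with Bmf and the Bcl2a1 genes as close relatives. 1 gene that this rule names is not reported here. The members and lists were chosen with earlier results of these data known. Simulated data with known changes were run through the same fit, with few changed genes, the same spread for every gene and no library effect. Of 94 to 98 genes changed by a log2 of 1, it called 88.3% for stimulated genotypes in CD4 (13712 genes) and 87.8% in CD8 (12634 genes). It called 60.2% for the class difference (14206 genes), and 0.05% to 0.08% of unchanged genes were called. Every simulation set the dispersion, a measure of the spread between libraries, at 0.0076. The real fits had 0.00763 in CD4 and 0.00679 in CD8, but 0.00275 for the class difference after stimulation. The 60.2% is thus not the rate of the real class test. In the real data far more genes were called, so these rates need not carry over.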

Additional observations from a re-analysis of the deposited data

Results flagged for a closer look

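The genotype effect differed between stimulated and unstimulated cells, by a test of that difference with edgeR across all genes, in 5 members of each class. Of all genes tested, 21.4% were called in CD4 and 23.8% in CD8. In CD4 cells the effect after stimulation minus that before was -1.61 on the log2 scale for Bcl2, 1.69 for Bax, 0.75 for Bak1, 0.71 for Bid and 0.49 for Mcl1. In CD8 cells it was -2.21 for Bcl2, 0.99 for Bax, 0.93 for Bak1, -0.65 for Bcl2l11 and 0.49 for Mcl1. The calls of Bcl2 and Bax were kept in all fits that left out 1 library, in both classes. In CD4 those of Mcl1 and Bid were kept in 5 and 3 of 8 such fits, and in CD8 those of Mcl1, Bcl2l11 and Bak1 in 2, 4 and 6 of 8. The CD8 value of Bcl2l11 was 0.011 in the strict class.

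The genotype effect in stimulated cells also differed between CD4 and CD8 cells in 6 members, by the test of that difference, beside 22.4% of all genes. The effect in CD4 minus that in CD8 was 1.50 for Pmaip1, 0.85 for Bcl2, 0.82 for Bcl2l11, 0.79 for Bbc3, 0.58 for Bax and -0.46 for Bak1. In strict classes, where 10.4% of genes were called, the calls of Pmaip1 (1.08) and Bcl2 (0.83) were kept and the other 4 were not.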

How the results depend on the processing

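The number of members called moved by over 1.5 times under these settings, given with the share of all genes called. Without a filter on low counts it was 2 between unstimulated CD4 genotypes in place of 1 (643 of 19776 genes), and without composition scaling 2 between unstimulated CD8 genotypes in place of 1 (1.08%). DESeq2 and cells under 10% mitochondrial UMIs each gave 5 between stimulated CD8 genotypes in place of 8 (23.8% and 35.4%). In the test between states, cells under 10% gave 2 in each class (14.2% and 11.1%), and with the strict class 2 in CD4 and 3 in CD8 (12.8% and 11.6%), in place of 5. The test of the genotype effect between classes gave 2 in the strict class, with or without the 10% limit, in place of 6 after stimulation (10.4% and 7.07%), and 1 with both limits in place of 0 without it (1.27%). CD4 against CD8 after stimulation gave 5 with both limits in place of 9 (32.0%). A mitochondrial limit of 20% gave 5 in each class in place of 8 and 9 (44.1% and 40.5%).

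Without 1 library the count was 0 to 1 between unstimulated genotypes in each class, 5 to 9 between stimulated CD8 genotypes (5 without WT stimulated library 1), 5 to 8 for WT CD8 stimulation (5 without WT unstimulated library 1), 3 to 7 in the CD4 test between states (3 without SDHA-KO unstimulated library 2 or WT stimulated library 1) and 2 to 5 in the CD8 one (2 without unstimulated WT library 2 or SDHA-KO library 2, 3 without SDHA-KO unstimulated library 1 or WT stimulated library 1).

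The sign turned for Bcl2l11 in CD8 cells, from -0.31 to 0.22 (strict), 0.17 (strict with the 10% limit) and 0.17 (cells without Trdc) between stimulated genotypes, from -0.65 to 0.011 (strict) in the test between states and from -0.48 to 0.0074 (no composition scaling) for WT stimulation. It turned for Bcl2l1 in the CD8 test between states, from -0.04 to 0.85 (strict with the limit). Between classes after stimulation, Bax went from 0.30 to -0.035 (strict) and -0.074 (with the limit), and the class difference of the genotype effect went from 0.58 to -0.0097 for Bax (with the limit) and from 0.79 to -0.063 (strict) and -0.12 (with the limit) for Bbc3. The cause was not tested. Of the other values of single members, 4360 kept their side of the threshold, 238 lost a call and 117 gained one. A turned sign was counted only where the value was called in either fit, so the 4360 can hold others. Same-numbered libraries did not deviate together (correlations of -0.19 to 0.0801 between groups of a class), and the main fits did not pair them. Such correlations cannot show whether they shared a mouse or day, which the labels do not say. A replicate block changed the counts of called members from 7 to 6 for WT CD4 stimulation and from 9 to 7 for SDHA-KO CD4 stimulation, left the other 8 class comparisons at their counts, and gave 65 Subtype calls in place of 60. In fits of the 4 compared libraries only, the crossed pairing, chosen after seeing the data, gave 9 against 8 for same numbers in SDHA-KO CD4 stimulation and 9 against 9 between stimulated CD4 genotypes. With 2 libraries a group, and Bik and Pmaip1 under 12 CPM, small differences of these genes are poorly resolved.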
